A study of Mus musculus with 27 samples.

Results

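The levels of 10 Wnt signalling genes were read in the developing and adult mouse esophagus. The genes were Wnt4, Wnt5a and Wnt11 (secreted ligands), Ctnnb1 (β-catenin), Lef1 and Tcf7 (the nuclear factors that β-catenin works through), Axin2 and Nkd1 (inhibitors inside the cell that are themselves induced by the pathway), and Sfrp1 and Sfrp2 (secreted proteins that bind Wnt ligands). They were chosen by name, 10 of the 28188 genes named on the array, and every array probe carrying one of these names was used, 18 in all. Each gene was read as the mean over its probes of the log2 ratio of Cy5 (esophagus) to Cy3 (a universal mouse reference RNA from cell lines). A value of 0 therefore means the same signal as in the reference, and levels of different genes were not compared with each other.

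The study followed C57BL/6J mice from the embryo to adulthood and asked what the transcription factor Nrf2 and its cytoplasmic repressor Keap1 contribute to the esophagus. There were 27 arrays in 9 groups of 3, each array made from 1 esophageal sample. Wild-type whole esophagus was taken at embryonic days E11.5 and E15.5, at birth (P0) and at postnatal day 7 (P7). Groups and replicate numbers follow the sample titles; the description labels give the same ages but number E15.5 replicates 2 and 3 as replicate 1 and P7 replicate 3 as replicate 2. Whole esophagus at P7 was also taken from Nrf2-/-, Keap1-/- and Nrf2-/-Keap1-/- mice, all on a C57BL/6J background. The adult groups, wild-type and Nrf2-/- at 8 weeks, were esophageal epithelium rather than whole esophagus. Age and tissue preparation therefore cannot be told apart in any step from P7 to adult. The knockouts are carried in the germline and are not limited to a cell type.

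Wnt ligands bind Frizzled receptors together with Lrp5 or Lrp6 and block the complex of Axin, Apc and Gsk3 that marks β-catenin for destruction. The β-catenin that accumulates enters the nucleus, joins Lef1 or Tcf7 and switches on target genes, among them Axin2 and Nkd1, which feed back to dampen the signal. Wnt5a and Wnt11 can also act without β-catenin, through cell polarity and calcium. Secreted inhibitors such as Sfrp1 and Sfrp2, made largely by mesenchyme in many organs, hold ligands away from their receptors. In the foregut, Wnt signals take part in setting the respiratory tract apart from the esophagus.

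Of the 10 genes, 8 have a start region of 300 bases (250 before and 50 after the annotated start) in the RefSeq table used here, build GRCm38.p6, with 14 start regions between them. Wnt5a and Sfrp1 had no match. The letters bound by Lef1 and Tcf7, CTTTGAT or CTTTGAA on either strand, were found in 1 of the 14, a start region of Wnt11, where they begin 51 bases before the start. Over all 32851 start regions of the table, 8.65% hold either motif. The 250 bases before the start are shown for Wnt11 because it holds the match, for Axin2 because it is the textbook target of the pathway, and for Sfrp2 because it showed the largest difference between genotypes. Capitals mark the match, which lies on the opposite strand and therefore reads ATCAAAG.
Wnt11, chr7:98834862-98835111, plus strand: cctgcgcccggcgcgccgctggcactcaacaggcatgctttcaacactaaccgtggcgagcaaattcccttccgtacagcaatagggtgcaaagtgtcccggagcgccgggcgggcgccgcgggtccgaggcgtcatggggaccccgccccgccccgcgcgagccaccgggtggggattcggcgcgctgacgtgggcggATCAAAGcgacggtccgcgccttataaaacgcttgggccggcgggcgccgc
Axin2, chr11:108920099-108920348, plus strand: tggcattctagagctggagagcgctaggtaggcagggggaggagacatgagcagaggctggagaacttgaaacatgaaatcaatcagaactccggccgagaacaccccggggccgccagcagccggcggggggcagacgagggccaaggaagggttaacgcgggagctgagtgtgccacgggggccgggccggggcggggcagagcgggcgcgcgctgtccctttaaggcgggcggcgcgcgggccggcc
Sfrp2, chr3:83766071-83766320, plus strand: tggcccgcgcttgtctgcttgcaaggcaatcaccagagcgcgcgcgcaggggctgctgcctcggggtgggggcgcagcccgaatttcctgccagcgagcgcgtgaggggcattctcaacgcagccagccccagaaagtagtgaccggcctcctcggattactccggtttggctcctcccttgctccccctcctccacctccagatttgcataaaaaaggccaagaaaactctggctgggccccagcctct
The Axin2 and Sfrp2 stretches hold neither motif. These are matches of letters only, and no binding was measured.

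The arrays were read on 4 scan days. Their median signal ran from 81.8 to 226 in Cy5 and from 115 to 386 in Cy3, and 58.9% to 69.3% of spots were well above background in Cy5. The 3 Keap1-/- arrays shared a slide and a scan day with no other array and had the lowest Cy3 signals (115 to 147, against 223 or more elsewhere), so genotype and scan day cannot be told apart for them. The wild-type P7 arrays and the P0 arrays also lay on slides that held no other group. Slide therefore differs along with age or genotype in every comparison with them. Nfe2l2, the gene of Nrf2, was lower in every Nrf2-/- and Nrf2-/-Keap1-/- array (-4.14 to -2.85) than in any wild-type array at P7 or in adults (-0.55 to 1.27). Keap1 did not separate Keap1-/- (-0.27 to 0.64) from wild-type at P7 (0.42 to 1.00), and the sources used here do not say whether its probe lies in the deleted part, whereas Nqo1, a detoxification gene switched on by Nrf2, was 3.95 to 4.18 in Keap1-/- and at most 0.45 in wild-type. Among the embryonic arrays, E11.5 replicate 3 was nearer to the E15.5 arrays 2 and 3 (r = 0.98 and 0.98 over 19722 genes) than to its own label (0.83 and 0.77). The reverse held for E15.5 replicate 1, nearer to the E11.5 arrays 1 and 2 (0.96 and 0.93) than to its own label (0.80 and 0.81). Both arrays therefore resembled the other label, and the 6 embryonic arrays were also pooled, a mean that does not depend on which of the embryonic labels an array carries. On E11.5 replicate 2 the reference channel itself stood apart, with r = 0.978 against the median array, where the other 26 arrays gave 0.984 to 0.998.

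Wnt4 was the member that rose between embryo and birth and stayed high. Its log2 ratio was 1.50, 0.94 and 2.00 at E11.5, 1.01, 1.85 and 2.27 at E15.5, 2.97, 3.12 and 2.68 at P0 and 2.92, 3.27 and 2.80 at P7. Every wild-type postnatal array at P0 and P7 stood above every embryonic array. Wnt4 rose 2.51-fold from embryo to P0 (log2 change 1.33, SE 0.28, limma adjusted p = 0.00419) and was 2.64-fold higher at P7 than in the embryo (1.40, SE 0.28, limma adjusted p = 0.00237). From P0 to P7 the difference was 0.07 (SE 0.33). With E11.5 replicate 3 and E15.5 replicate 1 left out, the rise from embryo to P0 was 1.28 (limma adjusted p = 0.00937), and with E11.5 replicate 2 left out as well it was 1.05 (limma adjusted p = 0.00938).

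**Figure D1:**
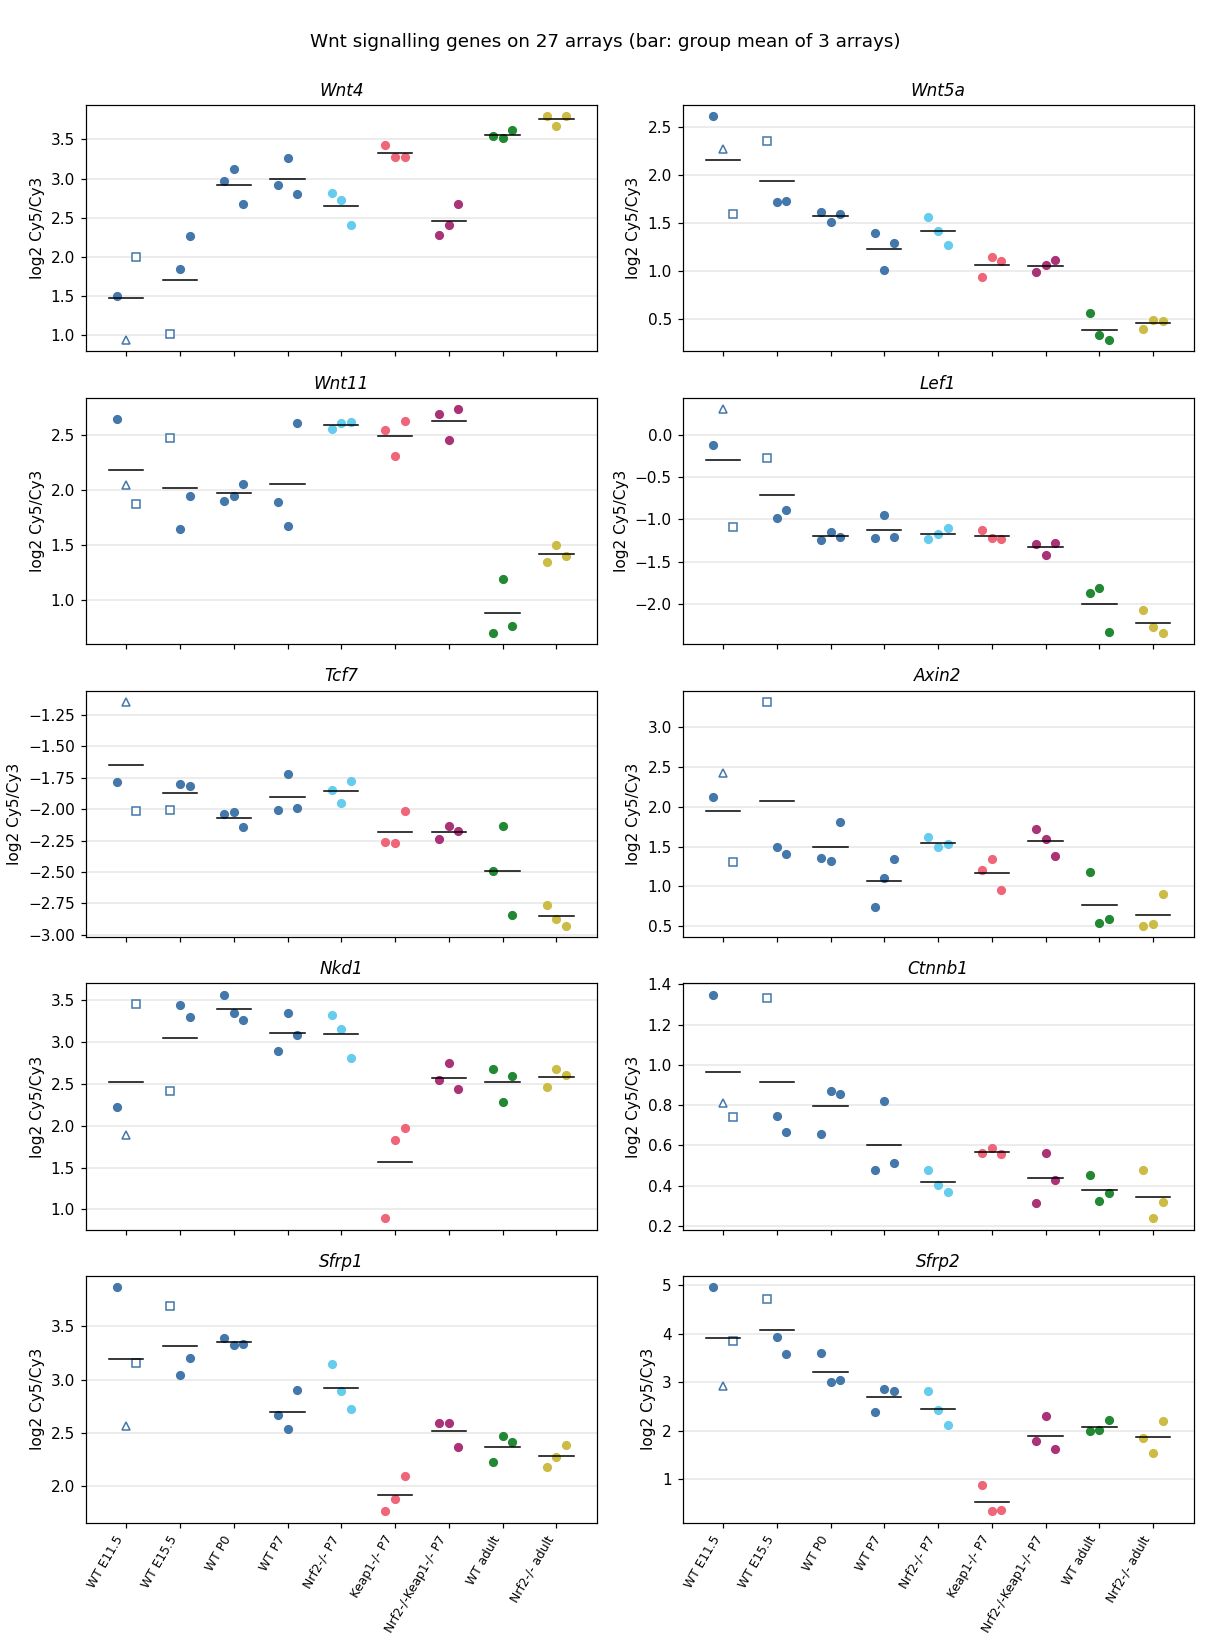
Log2 Cy5/Cy3 of each of the 10 genes (1 panel each) on all 27 arrays, by group, with bars at the group means of 3 arrays; squares mark E11.5 replicate 3 and E15.5 replicate 1, and a triangle marks E11.5 replicate 2. Wnt4 stands at 0.94 to 2.27 in the embryo and at 2.68 or more in wild-type from birth, with lower values in some P7 arrays without Nrf2, and Sfrp2 at 0.34 to 0.88 in Keap1-/-, below every other array.

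The ligand Wnt5a, known for its part in mesenchyme and in organ lengthening, went the other way. Its values were 2.61, 2.27 and 1.59 at E11.5, 2.35, 1.72 and 1.72 at E15.5, 1.62, 1.51 and 1.59 at P0 and 1.39, 1.01 and 1.29 at P7. Embryo and P7 did not overlap, and Wnt5a fell by 0.81 on the log2 scale from embryo to P7 (SE 0.21, limma adjusted p = 0.0115; without P7 replicate 2, limma adjusted p = 0.0564). At P0, 2 of the 3 arrays lay above the lowest embryonic array, and the change from embryo to P0 (-0.47, SE 0.21) did not pass the test. Wnt11, a ligand of cell movement and polarity, ran from 1.64 to 2.64 in the embryo and from 1.67 to 2.60 at P7, with overlapping groups and a change of -0.05 (SE 0.24).

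Sfrp2 was the other member that fell by P7. It stood at 4.96, 2.92 and 3.86 at E11.5, 4.71, 3.94 and 3.58 at E15.5, 3.60, 3.01 and 3.06 at P0 and 2.40, 2.85 and 2.83 at P7. The P7 arrays lay below all 6 embryonic arrays, the lowest of which, E11.5 replicate 2, was close to the highest P7 array. Sfrp2 fell by 1.30 from embryo to P7, a 2.47-fold difference (SE 0.37, limma adjusted p = 0.017; without P7 replicate 1, limma adjusted p = 0.0728). On E11.5 replicate 2 the Cy3 signal of Sfrp2 was 19480, against 1299 to 3199 on the other 26 arrays, which lowers its ratio there. With that array and both arrays that resembled the other label left out, the fall was 1.47 (adjusted p = 0.0105 by limma). Sfrp1 ran from 2.56 to 3.86 in the embryo, from 3.33 to 3.39 at P0 and from 2.53 to 2.90 at P7. Its change from embryo to P7 was -0.55 (SE 0.23, limma adjusted p = 0.084), which became -0.67 (adjusted p = 0.0327 by limma) without those 3 arrays. On all arrays, Sfrp1 probe A_51_P352296, above background in both colours on all 27, changed by -0.09. Most of the change came from A_52_P564706 (-1.01), which was above background in Cy3 on 1 of 27 arrays. The Cy3 signal of Sfrp1, read from the reference channel, was 851 to 8207 in the embryo, 1212 to 1293 at P0 and 322 to 356 at P7. The part this plays in the Sfrp1 ratios was not tested.

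Among the nuclear factors, Lef1 was -0.12, 0.31 and -1.09 at E11.5, -0.27, -0.98 and -0.88 at E15.5, between -1.24 and -1.15 at P0 and between -1.22 and -0.95 at P7. The embryonic arrays ranged more widely than the postnatal ones and overlapped those of P7, and the change from embryo to P7 (-0.62, SE 0.27) did not pass the test (limma adjusted p = 0.0944). Without a Lef1 probe that was above background on no array, that change was -0.98 (SE 0.42, limma adjusted p = 0.0858). Tcf7 ran from -2.01 to -1.15 in the embryo and from -2.01 to -1.72 at P7, a change of -0.15 (SE 0.17). Ctnnb1 itself ran from 0.67 to 1.35 in the embryo and from 0.48 to 0.82 at P7, a change of -0.34 (SE 0.17, limma adjusted p = 0.145). None of these 3 genes separated embryo from P7 beyond the spread between arrays.

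The feedback genes spread widely among the embryonic arrays. Axin2 was 2.12, 2.43 and 1.30 at E11.5, 3.32, 1.49 and 1.40 at E15.5, between 1.32 and 1.82 at P0 and between 0.75 and 1.35 at P7. Its highest value came from E15.5 replicate 1 and its lowest embryonic value from E11.5 replicate 3, the 2 arrays that resembled the other label. From embryo to P7 Axin2 changed by -0.95 (SE 0.39, limma adjusted p = 0.075). Its Cy3 signal was 401 to 811 at E11.5, 482 to 621 at E15.5, 459 to 738 at P0 and 248 to 302 at P7. The part this plays in its ratios was not tested. Nkd1 was 2.23, 1.89 and 3.45 at E11.5, 2.41, 3.44 and 3.29 at E15.5, between 3.26 and 3.56 at P0 and between 2.89 and 3.34 at P7. Here too the low values came from E11.5 replicates 1 and 2 and E15.5 replicate 1. From embryo to P7 Nkd1 changed by 0.32 (SE 0.34).

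Of the 10 genes, 1 (Wnt4) was called among the 4 wild-type time points by limma's F-test (adjusted p = 0.0077), where 30.2% of all 19728 genes tested were called. From embryo to P0 it was 1 of 10 (Wnt4), against 30.7% of all genes. From embryo to P7 it was 3 of 10, against 37.8% of all genes (20.7% higher and 17.1% lower), with a median change of -0.45 over the members and 0.00 over all genes. These shares were no larger than those of all genes. By label, 1 of 10 was called from E15.5 to P0 (Wnt4, 1.21, limma adjusted p = 0.0259), against 19.8%, but the call was lost without E15.5 replicate 1, P0 replicate 1 or P0 replicate 2 (highest adjusted p = 0.0929 by limma). From P0 to P7 none of the 10 was called, against 2.43% of all genes. Of the 10, Sfrp1 alone (-0.65) had an unadjusted p under 0.05, as had 2798 of all 19728 genes. From E11.5 to P7, 2 were called (Wnt4, 1.52, and Wnt5a, -0.92), against 30.2%. The Wnt5a call was lost without E11.5 replicate 1, E11.5 replicate 2 or P7 replicate 2, with a highest adjusted p of 0.0727 by limma. Cell type markers also changed from embryo to P7. Squamous epithelium markers were called higher for 4 of 7 (median change 1.52) and striated muscle markers for 6 of 6 (3.22). Of 6 mesenchyme markers, 1 was lower and none higher (median change 0.24). Of 4 enteric neuron and glia markers, 1 was higher and 2 lower. From embryo to P0, 3 of 7 squamous and 5 of 6 striated muscle markers were higher. The part of these cell types in the members' changes was not tested.

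From E11.5 to E15.5 as labelled, limma called 0 of the 10 genes and 0% of all genes. An unadjusted p under 0.05 was found for 0 of the 10 and for 327 of all 19728 genes. Leaving out E11.5 replicate 3 and E15.5 replicate 1, which left 2 arrays in each group, turned 4 of the 10 into calls, against 13.7% of all genes in the same fit. Nkd1 was then higher at E15.5 (1.30, limma adjusted p = 0.00173), and Lef1 (-1.03, adjusted p = 0.00323), Wnt5a (-0.72, adjusted p = 0.0177) and Axin2 (-0.83, adjusted p = 0.042) were lower. The 2 arrays were singled out by their correlation over all genes, these 4 included, so the values describe the remaining arrays and do not check the labels. The E11.5 arrays kept shared a slide, and the E15.5 arrays kept shared another. Age and slide therefore cannot be told apart in these values. Of the 2 E11.5 arrays kept, replicate 2 had the reference channel that stood apart. Its Cy3 signal was 1842 for Nkd1, 3898 for Lef1, 1718 for Wnt5a and 811 for Axin2. On replicate 1 these signals were 543, 1963, 576 and 401. The part of that channel in the 4 calls was not tested.

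From P7 whole esophagus to adult epithelium, most members fell and Wnt4 rose, in wild-type and in Nrf2-/- mice alike. Limma called 7 of 10 in wild-type, 1 higher and 6 lower, against 42.9% of all genes (19.9% higher and 23% lower). The wild-type count was 3 to 5 when any 1 array was left out (3 without P7 replicate 3) and 3 under median centring. The 42.9% belongs to the fit of all these arrays with loess and not to those fits. In Nrf2-/- it called 9 of 10, 1 higher and 8 lower, against 55.1% of all genes (27% higher and 28% lower). The median change over the 10 genes was -0.59 in wild-type and -0.77 in Nrf2-/-, with 0.01 over all genes in each.

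Wnt4 moved from 2.80 to 3.27 at P7 to 3.54, 3.52 and 3.62 in wild-type adults, with no overlap. It rose by 0.56 (SE 0.15, limma adjusted p = 0.0186), but 4 of the 6 runs that each left out 1 array lost the call, with adjusted p up to 0.0648. In Nrf2-/- it was 2.81, 2.73 and 2.41 at P7 and 3.80, 3.67 and 3.80 in adults, a rise of 1.1 (SE 0.14, limma adjusted p = 5.42e-05). Wnt5a fell from between 1.01 and 1.39 to 0.56, 0.33 and 0.28 in wild-type (-0.84, SE 0.15, limma adjusted p = 0.00338). In Nrf2-/- it fell from between 1.27 and 1.55 to 0.39, 0.49 and 0.48 (-0.96, SE 0.13, limma adjusted p = 7.41e-05). Wnt11 fell from 1.89, 1.67 and 2.60 to 0.71, 1.19 and 0.77 in wild-type (-1.16, SE 0.26, limma adjusted p = 0.00923) and from between 2.55 and 2.61 to between 1.35 and 1.50 in Nrf2-/- (-1.17, SE 0.21, limma adjusted p = 0.000644). The ligands thus parted, Wnt4 upward and Wnt5a and Wnt11 downward, and none of these P7 and adult groups overlapped.

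Lef1 was -1.22, -0.95 and -1.21 at P7 and -1.87, -1.81 and -2.33 in wild-type adults. It fell by 0.87 in wild-type (SE 0.17, limma adjusted p = 0.00567) and by 1.06 in Nrf2-/- (SE 0.15, limma adjusted p = 0.000106), where adults stood at -2.34 to -2.07. The wild-type value rests in part on a probe that was only bounded in adults. In wild-type the direction turned to 0.09 when each spot's own local background was subtracted. Tcf7, the partner factor, was -2.49, -2.13 and -2.84 in wild-type adults against -2.01 to -1.72 at P7. Its change of -0.58 (SE 0.20, limma adjusted p = 0.0451) kept the call in 1 of the 6 runs that left out an array (adjusted p up to 0.107), and it turned to 0.60 with each spot's own local background. In Nrf2-/- Tcf7 fell from between -1.95 and -1.77 to between -2.93 and -2.76 (-1.0, SE 0.16, limma adjusted p = 0.000326). Ctnnb1, whose protein is controlled mainly by its breakdown, was 0.32 to 0.45 in wild-type adults against 0.48 to 0.82 at P7 and was called in neither genotype (-0.22, SE 0.13, and -0.07, SE 0.11).

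Axin2 passed the test in Nrf2-/- but not in wild-type, and the difference between them did not pass. In wild-type it was 0.75, 1.11 and 1.35 at P7 and 1.18, 0.54 and 0.59 in adults, with overlapping groups and a change of -0.30 (SE 0.22, limma adjusted p = 0.32). In Nrf2-/- it was 1.62, 1.50 and 1.53 at P7 and 0.51, 0.52 and 0.90 in adults, a fall of 0.90 (SE 0.20, limma adjusted p = 0.00235). The difference between these falls was -0.61 (SE 0.28, limma adjusted p = 0.444). In Nrf2-/- the Cy5 signal of Axin2 was 241 to 276 at P7 and 544 to 738 in adults. Its Cy3 signal, from the reference RNA, was 264 to 295 and 539 to 676. In wild-type the Cy3 signal was 248 to 302 at P7 and 588 to 613 in adults. The part of the reference channel in these changes was not tested. Nkd1 fell from 2.89, 3.34 and 3.08 to 2.67, 2.29 and 2.59 in wild-type (-0.59, SE 0.17, limma adjusted p = 0.0243), a call that 3 of the 6 runs without 1 array lost (adjusted p up to 0.0834). In Nrf2-/- it fell by 0.52 (SE 0.16, limma adjusted p = 0.0182), from between 2.81 and 3.32 to between 2.46 and 2.67, but the change was 0.02 when arrays were centred on their medians in place of loess.

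Sfrp2 was 1.99, 2.02 and 2.21 in wild-type adults, below 2.40, 2.85 and 2.83 at P7 (-0.62, SE 0.16, limma adjusted p = 0.0171), and 3 of the 6 runs without 1 array lost the call (adjusted p up to 0.0594). In Nrf2-/- its groups overlapped, at 2.82, 2.43 and 2.11 against 1.86, 1.55 and 2.21 (-0.58, SE 0.21, limma adjusted p = 0.0339), 4 of the 12 runs without 1 array lost the call (adjusted p up to 0.137), and the change was 0.21 under median centring. Sfrp1 changed by -0.33 in wild-type (SE 0.14, limma adjusted p = 0.099) and fell by 0.64 in Nrf2-/- (SE 0.14, limma adjusted p = 0.00205), from between 2.72 and 3.15 to between 2.18 and 2.38.

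**Figure D2:**
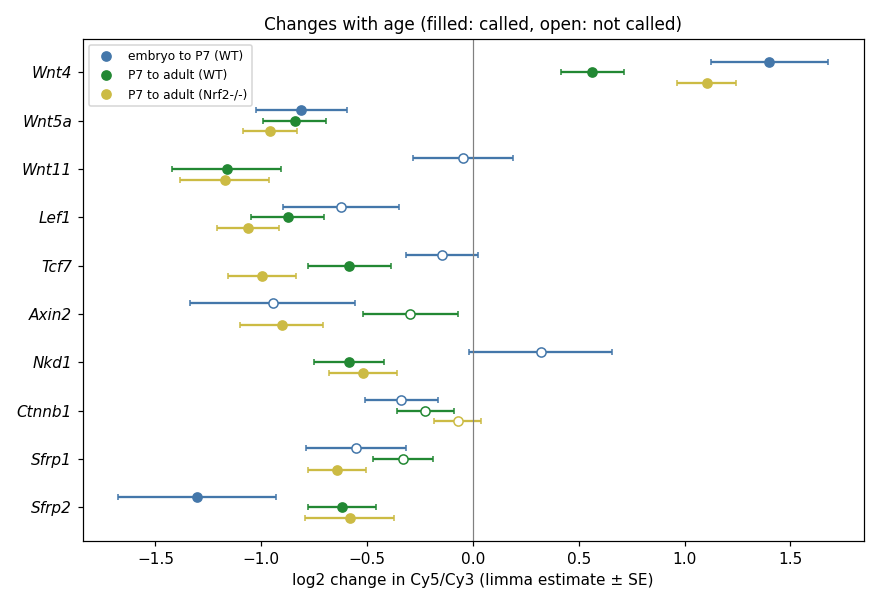
Log2 change of each gene (limma estimate, bars ± SE) from embryo to P7 and from P7 to adult in wild-type and Nrf2-/-; filled circles passed an adjusted p of 0.05. Wnt4 lies to the right of 0 in all 3 steps, and the other genes lie mostly to the left, Wnt11 at -1.16 and -1.17 in the steps to adult.

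Array batches and tissue ran with these steps. Wild-type adult replicates 1 and 2 were scanned on the same day as the wild-type and Nrf2-/- P7 arrays, though on another slide, and neither replicate 3 nor any Nrf2-/- adult array was. Within that scan day, the wild-type changes were -0.79 for Wnt5a (limma adjusted p = 0.0125), -1.10 for Wnt11 (0.0316), -0.71 for Lef1 (0.0106), -0.63 for Nkd1 (0.0447) and -0.69 for Sfrp2 (0.0244), while Wnt4 (0.54, adjusted p = 0.0503) and Tcf7 (-0.41, adjusted p = 0.107) no longer passed. With the scan day as a term in the fit of both genotypes, 2 of the 9 Nrf2-/- calls were left, Wnt4 (1.00, limma adjusted p = 0.0252) and Wnt5a (-0.81, limma adjusted p = 0.0333). In that fit only wild-type adult replicate 3 links the scan days of the Nrf2-/- P7 and adult arrays. The share of all genes called there was not set beside this count, so it is no comparison with all genes. All 6 mesenchyme markers (Col1a1, Col1a2, Col3a1, Pdgfra, Dcn and Lum) were lower in adults in both genotypes, their mean ranging from 1.75 to 2.10 at P7 and from -0.35 to 0.37 in adults. Smooth muscle markers were lower for 3 of 5 in wild-type and 5 of 5 in Nrf2-/-, and striated muscle markers for 6 of 6 and 5 of 6. The part of these cell types in the members' changes was not tested. In tissue RNA of this kind, fewer cells of a type and less RNA per cell cannot be told apart.

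The probes of 1 gene did not always move alike in the steps to adult. Wnt5a rests on a pair of probes, of which A_52_P250865, named Wnt5a only in the newer annotation, changed by -1.55 in wild-type and -1.60 in Nrf2-/-, and A_51_P162272, named in both versions, by -0.13 and -0.31. With probes named in both versions alone, the Wnt5a changes did not pass (limma adjusted p = 0.683 and 0.241). Of the 3 Lef1 probes, A_52_P333110 was above background on 0 of 27 arrays in either colour, so it adds no measurement to the mean. A_51_P501145 was not well above background in Cy5 on any of the 3 wild-type adult arrays and was at least 4.06-fold brighter at P7, and A_51_P420400 changed by -0.31. The wild-type Lef1 change is therefore no exact fold. In Nrf2-/- these probes changed by -2.73 and -0.58, and without the probe that was never above background the Lef1 change was -1.65 (SE 0.19, limma adjusted p = 2.69e-05). The Nkd1 probes changed by -0.97 and -0.20 in wild-type and by -1.11 and 0.07 in Nrf2-/-, and the Tcf7 probes moved the same way as each other.

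**Figure D3:**
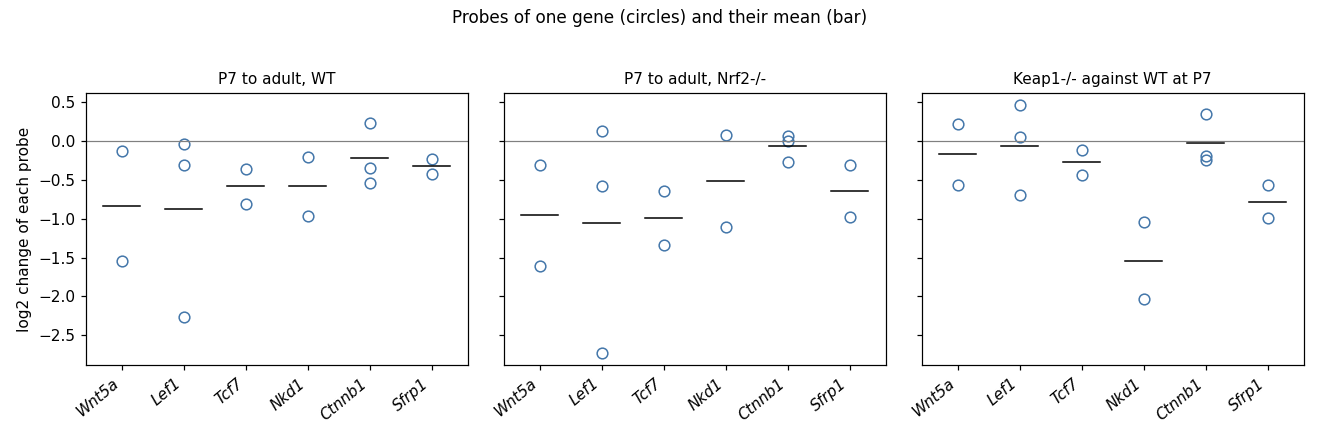
Log2 change of each probe (circles) and the mean over a gene's probes (bars) for the 6 genes with more than 1 probe, from P7 to adult in wild-type, from P7 to adult in Nrf2-/-, and Keap1-/- against wild-type at P7. The Lef1 and Wnt5a probes lie far apart in the steps to adult; the lowest Lef1 circle in wild-type is a probe not well above background in adults and so only a bound.

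At P7, loss of Keap1 went with lower Sfrp2, Nkd1 and Sfrp1 and no ligand or nuclear factor passed the test, though Wnt4 (higher) and Tcf7 (lower) did not overlap wild-type. Limma called 3 of 10 in Keap1-/-, all lower, against 33.4% of all genes (15.4% higher and 18% lower), a share near the background. The median change over the 10 genes was -0.12, with -0.02 over all genes. In Nrf2-/- at P7 none of the 10 was called by limma, against 0.0157% of all genes. An unadjusted p under 0.05 was found for 3 of the 10 and for 2055 of all 19081 genes. In Nrf2-/-Keap1-/- none was called, against 0.425%. Here 5 of the 10 had an unadjusted p under 0.05, as had 3327 of all 19081 genes. The 3 comparisons share the wild-type arrays.

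Sfrp2 was 0.88, 0.34 and 0.36 in Keap1-/-, against 2.40, 2.85 and 2.83 in wild-type, 2.82, 2.43 and 2.11 in Nrf2-/- and 1.79, 2.30 and 1.62 in Nrf2-/-Keap1-/-. The Keap1-/- arrays lay apart from all others and the double knockout lay between them and wild-type. Sfrp2 was 4.49-fold lower in Keap1-/- than in wild-type (log2 change -2.17, SE 0.23, limma adjusted p = 8.09e-05). In the double knockout the change against wild-type was -0.79 (SE 0.23, limma adjusted p = 0.133), with groups that did not overlap. The effect of Keap1 loss was -2.17 with Nrf2 present and -0.55 with Nrf2 absent. That difference, 1.62 (SE 0.33), passed the test (limma adjusted p = 0.00902) and was the only one of the 10 to do so, against 15.2% of all genes. It stayed past the threshold in each of the 12 runs that left out 1 array (1.42 to 1.80, adjusted p up to 0.0282).

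Nkd1 was 0.89, 1.83 and 1.97 in Keap1-/-, below 2.89, 3.34 and 3.08 in wild-type, 3.32, 3.16 and 2.81 in Nrf2-/- and 2.54, 2.74 and 2.43 in the double knockout. It was 2.91-fold lower in Keap1-/- than in wild-type (-1.54, SE 0.25, limma adjusted p = 0.00117), and both of its probes were lower, by -2.04 and -1.04. The Keap1 effect was -0.52 without Nrf2, and the difference between the effects (1.01, SE 0.36) did not pass (limma adjusted p = 0.0829). Sfrp1 was 1.76, 1.88 and 2.10 in Keap1-/-, below 2.67, 2.53 and 2.90 in wild-type (-0.79, SE 0.14, limma adjusted p = 0.00193). With Feature Extraction's own processed signals the Sfrp1 change was -0.75 (limma adjusted p = 0.114), and 1 of its probes was above background in Cy3 on 1 of 27 arrays. Its Keap1 effect was -0.40 without Nrf2, and the difference of 0.38 (SE 0.20) did not pass (limma adjusted p = 0.227). Each of the 3 genes stayed called in all 12 runs without 1 array.

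**Figure D4:**
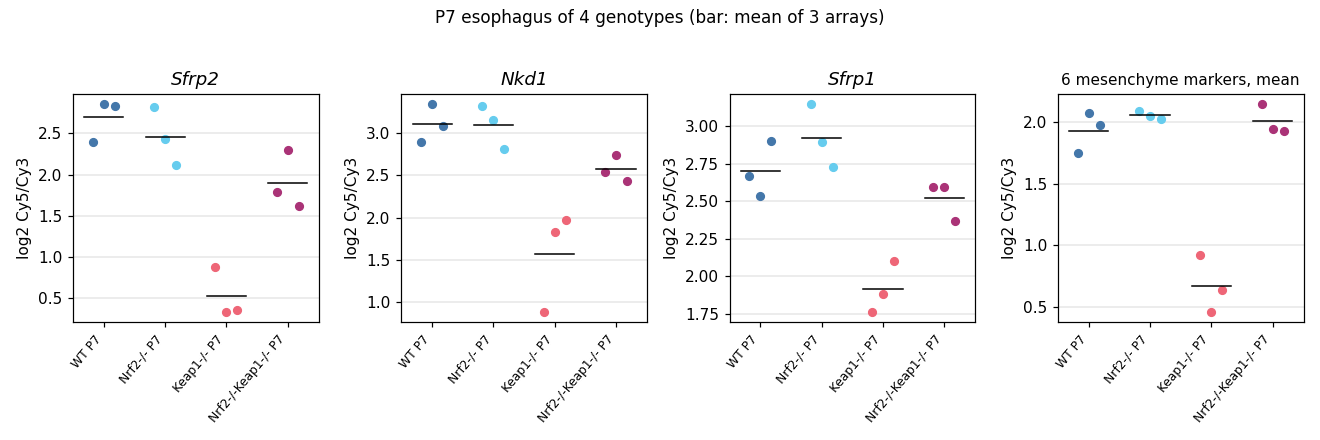
Log2 Cy5/Cy3 of Sfrp2, Nkd1 and Sfrp1, and the mean of 6 mesenchyme markers, on the 12 arrays of whole esophagus at P7, by genotype, with bars at the means of 3 arrays; each panel has its own axis range. The Keap1-/- arrays lie lowest in all 4 panels, for Sfrp2 at 0.34 to 0.88 and for the markers at 0.46 to 0.92.

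Mesenchyme markers were also lower in Keap1-/-, for 5 of 6 genes (median change -1.17). Their mean was 0.46 to 0.92 in Keap1-/-, against 1.75 to 2.07 in wild-type, 2.02 to 2.10 in Nrf2-/- and 1.93 to 2.15 in the double knockout. In the double knockout Sfrp2 (-0.79) and Nkd1 (-0.53) lay below wild-type without overlap but were not called. None of the 6 markers was called there (median change 0.06). All 6 were well above background in every group. Of 5 smooth muscle markers 4 were lower and 1 higher, and none of the 4 endothelial markers was called. Of 3 mesothelium markers, Msln (-3.31) and Upk3b (-1.26) were lower, and their mean was -2.90 to -2.08 in Keap1-/- against -1.13 to -0.42 in wild-type. Of 7 squamous epithelium markers, Epcam (-1.79) and Cdh1 (-0.64) were lower and Krt14 (0.98) was higher. The part of these cell types in the changes of Sfrp2, Nkd1 and Sfrp1 was not tested. Under median centring, which moved the median of all genes by 0.11 in this comparison and the share of called genes that were higher from 46.1% to 66.1%, Sfrp2 (-1.72), Nkd1 (-1.06) and Sfrp1 (-0.59) remained called and lower, and Wnt4 (0.76), Wnt11 (0.66) and Ctnnb1 (0.43) were called higher.

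The other members did not pass in any genotype at P7. Axin2 was 1.62, 1.50 and 1.53 in Nrf2-/- and 1.73, 1.59 and 1.38 in the double knockout, above 0.75, 1.11 and 1.35 in wild-type in every array. The changes were 0.48 (SE 0.16, limma adjusted p = 0.402) and 0.50 (SE 0.16, limma adjusted p = 0.152), and in Keap1-/- it was 0.10. Wnt11 ran from 2.31 to 2.73 over the 9 knockout arrays, and wild-type was 1.89, 1.67 and 2.60, with changes of 0.54, 0.44 and 0.57 in Nrf2-/-, Keap1-/- and the double knockout. The third wild-type array lay within the knockout range for Wnt11. Wnt4 was 3.27 to 3.43 in Keap1-/-, 2.41 to 2.81 in Nrf2-/- and 2.28 to 2.68 in the double knockout, on either side of wild-type, with changes of 0.33, -0.35 and -0.54 (SE 0.15 each). Tcf7 changed by -0.28 in Keap1-/- (SE 0.11, limma adjusted p = 0.0704), and the means of Wnt5a, Lef1 and Ctnnb1 changed by -0.20 to 0.18 over the 3 genotypes. In Keap1-/- the probes behind these means moved in opposite directions. They changed by -0.56 and 0.22 for Wnt5a and by -0.25, -0.20 and 0.35 for Ctnnb1. The Lef1 probes that were above background changed by -0.70 and 0.46.

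**Figure D5:**
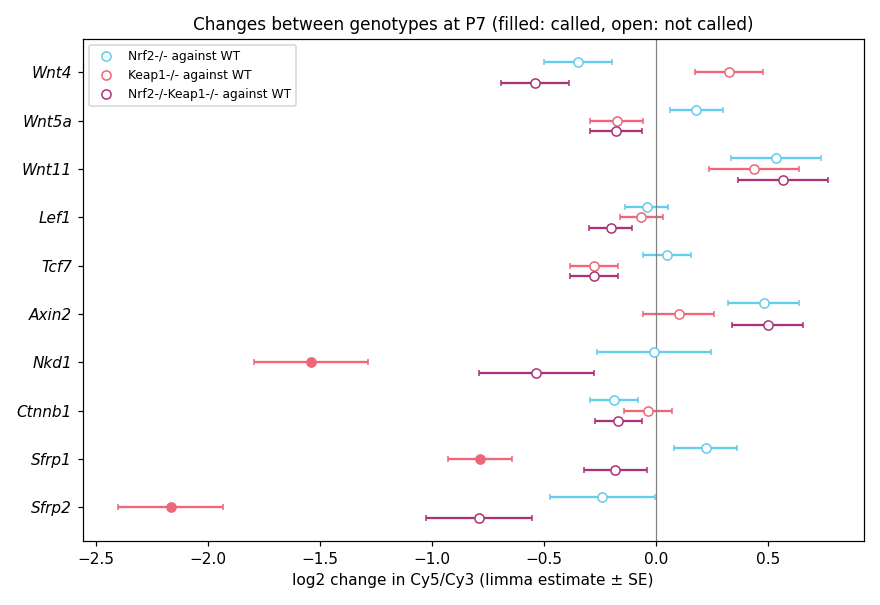
Log2 change of each gene at P7 (limma estimate, bars ± SE) in Nrf2-/-, Keap1-/- and Nrf2-/-Keap1-/- against wild-type; filled circles passed an adjusted p of 0.05. Filled circles are Sfrp2 (-2.17), Nkd1 (-1.54) and Sfrp1 (-0.79), all in Keap1-/-.

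In adult epithelium none of the 10 genes differed past the threshold between Nrf2-/- and wild-type by limma, against 0.443% of all genes. An unadjusted p under 0.05 was found for 3035 of all 18063 genes and for 1 of the 10. That gene was Wnt11, at 1.35, 1.50 and 1.40 in Nrf2-/- and 0.71, 1.19 and 0.77 in wild-type, with no overlap (0.53, SE 0.15, limma adjusted p = 0.176). Wnt4 did not overlap either, at 3.67 to 3.80 against 3.52 to 3.62 (0.19, SE 0.11, limma adjusted p = 0.406). No slide held adult arrays of both genotypes, and wild-type adult replicates 1 and 2 shared no scan day with any Nrf2-/- adult array. Genotype, slide and scan day therefore cannot be fully told apart in adults. Of 5 striated muscle markers tested there, 0 were called (median change 1.73). The part of that tissue in the differences was not tested. The effect of Nrf2 loss was not called as different between P7 and adult for any member, against 0.0876% of all genes. Wnt4 had the lowest unadjusted p among the 10, with -0.35 at P7 and 0.19 in adults, a difference of 0.54 (SE 0.20, limma adjusted p = 0.343).

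A wider list of 95 Wnt pathway genes beside the members, all present on the array, gave the setting. From embryo to P7, 19 of 90 tested were higher and 18 lower, 41.1% in all, against 37.8% of all genes. The secreted inhibitor Sfrp4 (2.78) and the receptor Fzd9 (2.37) rose, and the ligand Wnt2 (-1.84) and the corepressor Tle1 (-2.14) fell. From P7 to wild-type adult, 17 of 84 were higher and 26 lower, 51.2% in all, with Kremen2, a Dkk receptor, at 2.76, Wnt7b, an epithelial ligand, at 1.97, Fzd9 at -3.78 and the secreted inhibitor Frzb at -4.42. In Nrf2-/- 19 of 86 were higher and 34 lower, 61.6% in all. The share of all genes called was 42.9% in wild-type and 55.1% in Nrf2-/-.

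In Keap1-/- at P7, 10 of 87 genes of the wider list were higher and 27 lower, 42.5% in all, against 33.4% of all genes. Ligands (0 of 11 higher, 3 lower), the secretion genes Porcn and Wls (both lower), R-spondins and Ndp (3 of 4 lower) and secreted inhibitors (3 of 11 lower) were called in 1 direction, and receptors were mixed, 1 higher and 5 lower of 18. Also mixed were cytoplasmic and membrane regulators (3 higher and 3 lower of 16) and nuclear genes (3 and 4 of 10). So were targets (1 and 2 of 6) and planar polarity genes (2 and 2 of 9). Over all genes, 15.4% were called higher and 18% lower. The highest and the lowest change were both of receptors: the Wnt co-receptor Lrp5 rose by 2.34 (SE 0.11, limma adjusted p = 1.05e-07), and Lgr5, a receptor of R-spondins, fell by 2.44 (SE 0.19, limma adjusted p = 7.65e-06). The secreted inhibitor Sfrp4 fell by 2.20 (SE 0.40, limma adjusted p = 0.00216), beside its relatives Sfrp1 and Sfrp2. Lrp5 was also the single gene of the list called in the double knockout (0.78, SE 0.11, limma adjusted p = 0.0243), 1.15% of the list against 0.425% of all genes. In adults, Lgr5 (1.67, SE 0.18, limma adjusted p = 0.013) and Wnt2 (1.22, SE 0.18, limma adjusted p = 0.0384) were higher in Nrf2-/- than in wild-type, 2 of 80 tested (2.5%, against 0.443% of all genes). Genotype, slide and scan day cannot be fully told apart for these genes either.

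Across the 27 arrays, which by the study's methods share the reference RNA and fall into groups, the members fell into a few patterns. The profiles of Sfrp1 and Sfrp2 correlated at r = 0.91, those of Wnt5a and Lef1 at 0.91 and those of Lef1 and Tcf7 at 0.89. Wnt4 ran against Wnt5a (-0.87), Axin2 (-0.86) and Lef1 (-0.86). Of 17079 genes, the profiles nearest to Wnt4 were those of the creatine transporter Slc6a8 (0.97), the oxidase Duox1 (0.97) and the junction protein plakoglobin, Jup (0.96). For Nkd1 the nearest was Col4a6, a basement membrane collagen (0.88), for Tcf7 it was Lef1 (0.89), and for Sfrp1 it was Sfrp2. These are descriptions over arrays of 9 groups, not tests.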

How the data were processed

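Total RNA of each esophageal sample was labelled with Cy5 and hybridised with Cy3-labelled reference RNA on 2-colour Agilent 4x44k arrays. The deposited scanner files hold, per the file headers, intensity values from Agilent Feature Extraction 10.5.1.1 (20 arrays) or 10.7.3.1 (7 arrays). The authors also deposited a series matrix of normalized log10 ratios, used here only as an alternative, after conversion to log2. From the mean and background intensities, background was corrected by normexp (offset 50) and ratios were loess-normalized within each array with limma 3.58.1 in R 4.3.3 (statmod 1.5.0, data.table package 1.17.8). Control spots had weight 0, outlier-flagged spots were kept, and spots whose local background exceeded 5 times the array median were left out. Spots were averaged to probes and probes to genes.

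A gene entered a test if its Cy5 signal stood well above background on 3 or more arrays of the comparison and each group had 2 or more values. Tests were limma's moderated tests, adjusted by Benjamini-Hochberg across every gene tested and called at 0.05 or lower. A fit held only the groups of its comparison; adult and P7 Nrf2-/- were fitted with both wild-type groups. Labels call replicates biological. The number of arrays limits precision, and all values are relative to the reference. The fits were tested on simulated data.

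Named were all 10 members in every comparison, of the wider list the 2 called genes with the largest increase and the 2 with the largest decrease among those whose groups did not overlap (most given by example), and of the 3 genes with the highest r to each member a few. Probe names came from the newest annotation in the files. Members and lists were chosen with earlier results of these data known. Alternatives covered background correction, normalization, the probe filter, probe choice, the arrays fitted, left-out arrays, and replicate, slide and scan-day blocks. Promoter sequences came from RefSeq (GRCm38.p6).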

Additional observations from a re-analysis of the deposited data

Results flagged for a closer look

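Tcf7 on the array labelled E11.5 replicate 2 was -1.15, while the other 5 embryonic arrays ran from -2.01 to -1.79. Its gap to the next array, divided by the whole range of the 6 embryonic arrays, was above the 95% critical value of Dixon's test, which chance passes in about 5% of groups. All 10 members were screened this way, at both ends of the range, over arrays of both embryonic ages. The reference channel of that array stood apart from the other 26 arrays, with a Tcf7 Cy3 signal of 6066 on it against 2368 to 2464 on the E15.5 arrays. The part of that channel in the value was not tested.

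The effect of Keap1 loss on Sfrp2 at P7 differed with Nrf2 present or absent, by 1.62 on the log2 scale (limma adjusted p = 0.00902). Keap1 loss changed Sfrp2 by -2.17 with Nrf2 and by -0.55 without it. The Keap1-/- arrays had a scan day of their own, so genotype and scan day cannot be told apart.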

How the results depend on the processing

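The members called among the 4 time points (1) were 2 with outlier spots left out, with the series matrix ratios and with the replicate block, 4 with median centring or all 27 arrays fitted, 5 without both embryonic arrays that resembled the other label, and 1 to 4 without 1 array (2 without E11.5 replicate 2 or E15.5 replicate 1, 4 without E11.5 replicate 3). From embryo to P0 (1) they were 3 with processed signals, matrix ratios or all 27 arrays, 2 with median centring or each gene's brightest probe, and 1 to 2 without 1 array. From embryo to P7 (3) they were 5 with processed signals or matrix ratios, 6 with median centring, 7 with all 27 arrays, and 2 to 5 without 1 array (5 without E11.5 replicate 3). From E11.5 to E15.5 (0) they were 4 without both embryonic arrays and 0 without any single array. From E15.5 to P0 (1) they were 0 with own local background, processed signals, matrix ratios or median centring, and 0 to 1 without 1 array. From E11.5 to P7 (2) they were 4 with outlier spots left out, processed signals, matrix ratios, scale normalization or all 27 arrays, 5 with median centring or without both embryonic arrays, 1 with own local background or with probes named in both annotation versions, and 1 to 5 without 1 array (1 without E11.5 replicate 1 or P7 replicate 2, 4 without E11.5 replicate 3, 5 without E15.5 replicate 1). From P7 to wild-type adult (7) they were 4 with processed signals, matrix ratios or all 27 arrays, 3 with median centring, and 3 to 5 without 1 array (3 without P7 replicate 3, 4 without adult replicate 1). From P7 to Nrf2-/- adult (9) they were 2 with the scan day as a block and 7 to 9 without 1 array. In Keap1-/- (3) they were 6 with median centring or the brightest probe and 3 to 4 without 1 array. In Nrf2-/-Keap1-/- (0) they were 0 to 1 without 1 array (1 without wild-type P7 replicate 3). In adult Nrf2-/- (0) and for Nrf2 and age (0) they were 1 with own local background. For Keap1 and Nrf2 (1) they were 0 with outlier spots left out, where Sfrp2 had too few values, 2 with median centring or the slide as a block, and 1 to 2 without 1 array (2 without wild-type P7 replicate 2 or 3). The cause of the other moves was not tested. The share of all genes called under each setting was not set beside these counts, so they are no comparison with all genes.

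Directions reversed for Lef1 (0.0862) and Tcf7 (0.60) from P7 to wild-type adult with each spot's own local background, and for Nkd1 (0.0233) and Sfrp2 (0.21) from P7 to Nrf2-/- adult with median centring. Of the 27 called changes of members, all 27 kept their call with no background correction and with the stricter filter, 26 without a filter and with the slide as a block, 25 with the replicate block or the brightest probe, 24 with scale normalization, 22 with processed signals, 20 with median centring and 18 with own local background. With the scan day as a block, 11 of 20 kept it. Leaving out 1 array kept 252 of 282 and reversed 0. Same-numbered arrays deviated together, with r over 0.1 for each number, between E11.5 and P7, between P0 and P7 and between Keap1-/- and Nrf2-/-Keap1-/-, but not throughout any set of arrays fitted together (9 of 18, 7 of 18, 0 of 3, 0 of 3 and 3 of 18 pairs). With the replicate block, 3 members were called between E11.5 and P7, 0 between P0 and P7, and 1 for Keap1 and Nrf2 (Sfrp2, limma adjusted p = 0.0154); the block cost 2 calls among these changes, Nkd1 to wild-type adult and Sfrp2 to Nrf2-/- adult. Median centring moved the median of all genes by 0.40 in adult Nrf2-/- against wild-type and by 0.27 from P7 to Nrf2-/- adult, where the share of called genes that were higher went from 49.1% to 69.5%. In the step from embryo to P7 that share went from 54.7% to 34.9%. Alternatives under which a group has no value (Sfrp2 and Wnt4 with outlier spots left out) were not run.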

Other observations

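Spots of the members were marked as outliers by the scanner software in 62.3% of Ctnnb1 values, 40.7% of Sfrp2 values, 27.8% of Nkd1 values and 25.9% of Wnt4 values, and in 0% of Tcf7 and Axin2 values. No member spot was saturated. Airway and lung markers had a mean of 1.48 to 2.15 in the 3 P0 arrays and 0.00 to 0.24 in wild-type at P7, and none of the members was called between these groups.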
